A study of Canis lupus familiaris with 6 samples.

Results

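The leukocyte adhesion molecules examined here are ICAM1, VCAM1, SELP, SELE, CD40, CD44, CD47 and ALCAM, 8 of the 34378 different gene names that the array carries. Their members were taken by name alone, as every non-control probe filed under one of these symbols, which gave 14 of 43603 probes. They were measured in RasV12 cells, a line made from MDCK, a dog kidney epithelium in permanent culture, by adding the tetracycline-inducible construct pTR GFP-RasV12 for an oncogenic, GFP-tagged Ras. The groups were 3 samples of RasV12 cells cultured alone and 3 of RasV12 cells from mixed culture with normal MDCK cells, on collagen-coated dishes, and every sample of both groups had received tetracycline for 24 h before GFP-positive cells were sorted. Normal MDCK cells outnumbered RasV12 cells by 10 to 1 in mixed replicates 1 and 3 by the labels, whereas for mixed replicate 2 the labels have 100 to 1 and the study's methods name 10 to 1 throughout. The extraction text of the labels also names a β-catenin mutant in these cells, which neither the titles nor the methods give to them. The comparison asks how the presence of normal neighbours altered RNA levels in RasV12 cells of this 1 line, and cells without RasV12 were not analysed here.

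Adhesion of leukocytes proceeds in steps. SELP and SELE are the selectins with which activated endothelium slows rolling leukocytes, and ICAM1 and VCAM1 are immunoglobulin-family ligands that leukocyte integrins then grip. On epithelial cells ICAM1 is known as a protein induced by inflammatory cytokines through NF-κB. CD40 is a TNF-family receptor that also feeds NF-κB, CD44 is the main receptor for hyaluronan, CD47 is the ligand of SIRPA that restrains phagocytes, and ALCAM is the ligand of CD6 on T cells.

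The sequences of the probes on which the results rest are given here, 5′ to 3′ and in the sense of the transcript, so that each reading can be tied to its target. Capitals mark a poly(A) signal, searched as AATAAA or ATTAAA on the probe's own strand. It was found in the downstream CD40 probe alone among the 14, and in 12.2% of all probes of the array.
ICAM1, upstream probe: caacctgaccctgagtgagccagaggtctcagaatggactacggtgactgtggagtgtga
ICAM1, downstream probe: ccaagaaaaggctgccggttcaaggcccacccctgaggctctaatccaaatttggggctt
CD44: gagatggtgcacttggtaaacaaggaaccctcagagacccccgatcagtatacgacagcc
CD40, upstream probe: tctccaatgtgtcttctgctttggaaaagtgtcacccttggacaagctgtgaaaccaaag
CD40, downstream probe: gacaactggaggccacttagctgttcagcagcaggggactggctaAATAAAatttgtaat
CD47: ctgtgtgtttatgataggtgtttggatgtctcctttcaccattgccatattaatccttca
VCAM1: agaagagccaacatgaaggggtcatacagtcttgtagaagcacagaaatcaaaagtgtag
In the canFam3 build used by the array files, the ICAM1 probes lie on the minus strand at chr20:50820867-50820926 and chr20:50818764-50818823. The CD44 probe lies on the minus strand at chr18:32738444-32738503, and the VCAM1 probe on the minus strand at chr6:49342442-49342501. The CD40 probes lie on the plus strand, the upstream one at chr24:33377673-33380303 and the downstream one at chr24:33383236-33383295. The CD47 probe lies on the minus strand at chr33:13329978-13331057. The upstream CD40 probe and the CD47 probe, 60 bases long, cover 2631 and 1080 bases of genome, so each crosses at least 1 intron. The files do not give the exon or the untranslated part that a probe falls in. The selectin genes are neighbours, with the SELE and SELP probes 92.7 kb apart on chromosome 7, and the ALCAM and CD47 probes lie on chromosome 33.

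There was 1 single-colour array for each sample. The 75th percentile of the processed intensity was 592 to 700 units, and 60.8% to 66.4% of probes were well above background, the scanner software's own call. Levels below are log2 of the processed intensity over the 75th percentile of the same array, so a value of 0 is that percentile, and levels of different probes cannot be set against each other. Testing was limited to probes that reached this call on all arrays of either group, 26535 in number, with a median SD between replicates of 0.13. The 3 arrays of RasV12 cells alone shared 1 slide and 1 scan, and the 3 mixed arrays shared another, so an effect of the slide cannot be told apart from that of the culture. The labels do not say whether replicates were separate cultures, and p-values measure the spread between these samples only. In sorted bulk RNA, less RNA per cell and fewer expressing cells cannot be told apart.

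ICAM1 and CD44 were lower in RasV12 cells from mixed culture, and CD47 did not move. CD40 had a lower mean at both of its probes without a call, and at the upstream one the groups overlapped. Of the 14 probes, 6 could be tested, covering 4 genes, and all 6 were well above background on all 6 arrays. With limma's moderated test, adjusted over all 26535 probes, 3 of the 6 were called lower at an adjusted p under 0.05 and 0 were called higher, also 0 at an unadjusted p under 0.05. Over all tested probes, 5.72% were called lower and 5.5% higher. In 4 of the 6, every mixed array lay below every alone array, against 19.4% of all tested probes. The median log2 difference of the 6 was -0.34, where that of all tested probes was 0.00 (-0.0037).

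ICAM1, the ligand of the leukocyte integrins LFA-1 and Mac-1, fell at both of its probes. At the upstream probe the log2 levels were -1.59, -1.27 and -1.39 in RasV12 cells alone (replicates 1 to 3) and -1.96, -2.03 and -2.03 in mixed culture. The groups did not overlap, and the alone arrays were the more spread, with an SD of 0.16 against 0.04. The log2 difference was -0.59 (SE 0.10, 95% interval -0.83 to -0.36, adjusted p = 0.0217, limma), a level of 0.663 times that in culture alone. At the downstream probe the levels were 3.41, 3.55 and 3.46 alone and 3.07, 3.14 and 3.14 in mixed culture. These groups did not overlap either, and the log2 difference was -0.36 (SE 0.07, 95% interval -0.53 to -0.19, adjusted p = 0.0307, limma), or 0.779 times the level alone. The upstream probe fell by more than the downstream one in every mixed array relative to every alone array, with a difference between the differences of -0.23 on the log2 scale. The exact permutation test gave p = 0.1 (two-sided), the smallest that 3 arrays against 3 allow. The margin was small between the 2 replicates 1, where upstream minus downstream was -5.00 alone and -5.03 in mixed culture. With another background correction (normexp) the log2 differences of the 2 probes lay closer together, at -0.44 upstream and -0.34 downstream.

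CD44 had the largest log2 difference of the 4 members that could be tested. Its log2 levels were 0.76, 1.05 and 1.15 in RasV12 cells alone and 0.27, 0.17 and 0.18 in mixed culture. All 3 mixed arrays lay below the alone arrays by at least 0.49, and alone replicate 1 was the lowest of its group. The log2 difference was -0.78 (SE 0.11, 95% interval -1.05 to -0.51, adjusted p = 0.0183, limma), a fall of 41.9% on the linear scale. Only 1.41% of tested probes had a lower value of this difference.

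A further 2 probes carry CD44 in their description but are filed under an accession, and so were no members. They were looked up after the values of the members had been seen. Both read the minus strand of chromosome 18, at chr18:32754560-32755500 and chr18:32735608-32735668, and they are shown because they read other stretches of the CD44 locus.
CD44, first further probe: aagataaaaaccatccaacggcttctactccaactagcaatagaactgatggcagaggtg
CD44, second further probe: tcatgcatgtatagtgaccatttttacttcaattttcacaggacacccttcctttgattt
At the first the log2 levels were -0.91, -0.49 and -0.42 alone and -1.14, -1.34 and -1.34 in mixed culture, a difference of -0.67 (SE 0.14, adjusted p = 0.0366, limma). At the second they were 4.38, 4.51 and 4.51 alone and 4.04, 3.73 and 3.74 in mixed culture, a difference of -0.63 (SE 0.11, adjusted p = 0.0224, limma). Neither showed overlap between the groups, so all 3 probes named or described as CD44 were called lower. On the linear scale the signal at the further probes fell by 37.0% and fell by 35.3%. With the replicate number as a block the first of them was no longer called (adjusted p = 0.0608, limma), whereas the second was (adjusted p = 0.0435, limma). The 3 readings come from the same RNA and are not replicates of one another.

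**Figure D1:**
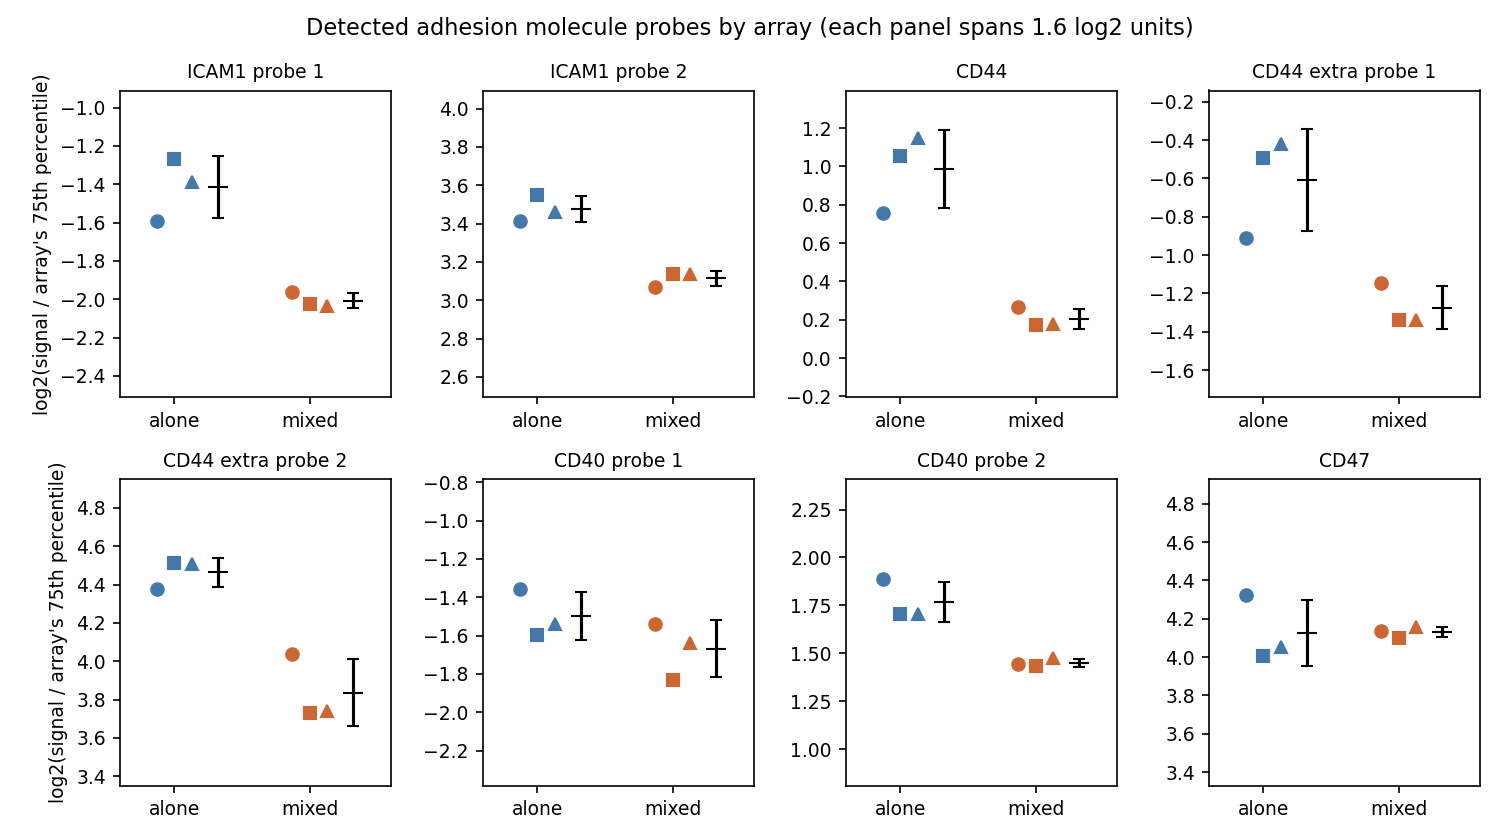
Levels of the 6 tested member probes and of the 2 further CD44 probes (extra probes 1 and 2), 1 panel a probe, as log2 of the signal over the array's 75th percentile; probe 1 is the upstream and probe 2 the downstream probe of a gene. Circles, squares and triangles are replicates 1, 2 and 3, and the bar gives the mean and SD of 3 arrays. At both ICAM1 probes, all CD44 probes and CD40 probe 2 the mixed arrays sit below every alone array, whereas the groups overlap for CD40 probe 1 and CD47.

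CD40 lay at the threshold. At its downstream probe the log2 levels were 1.89, 1.71 and 1.71 in RasV12 cells alone and 1.45, 1.44 and 1.48 in mixed culture. The groups did not overlap, and the log2 difference was -0.31 (SE 0.08, 95% interval -0.50 to -0.13), with an adjusted p of 0.0510 by limma, just short of the call. At its upstream probe the levels were -1.35, -1.60 and -1.54 alone and -1.54, -1.83 and -1.64 in mixed culture. Here the groups overlapped, and the log2 difference was -0.17 (SE 0.11, 95% interval -0.43 to 0.09, adjusted p = 0.322, limma). Within same-numbered pairs it was lower in 3 of 3, by differences of -0.18, -0.23 and -0.10. The fit with the replicate block gave an adjusted p of 0.165 (limma). The numbers come from the titles, and the correlations between arrays do not settle whether they are pairs. The 2 CD40 probes did not differ from each other in their response beyond the spread between arrays (difference 0.14 on the log2 scale, exact permutation p = 0.3, two-sided).

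CD47, which is known to be broadly expressed, did not move. Its log2 levels were 4.32, 4.01 and 4.05 in RasV12 cells alone and 4.13, 4.10 and 4.16 in mixed culture. The 3 mixed values lay inside the range of the alone values, which was widened by alone replicate 1. The log2 difference was 0.00 (0.0027, SE 0.10, adjusted p = 0.989, limma). Its 95% interval ran from -0.24 to 0.24, or from 0.849 to 1.18 times the level alone, so a change as large as that of CD44 lay outside it.

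**Figure D2:**
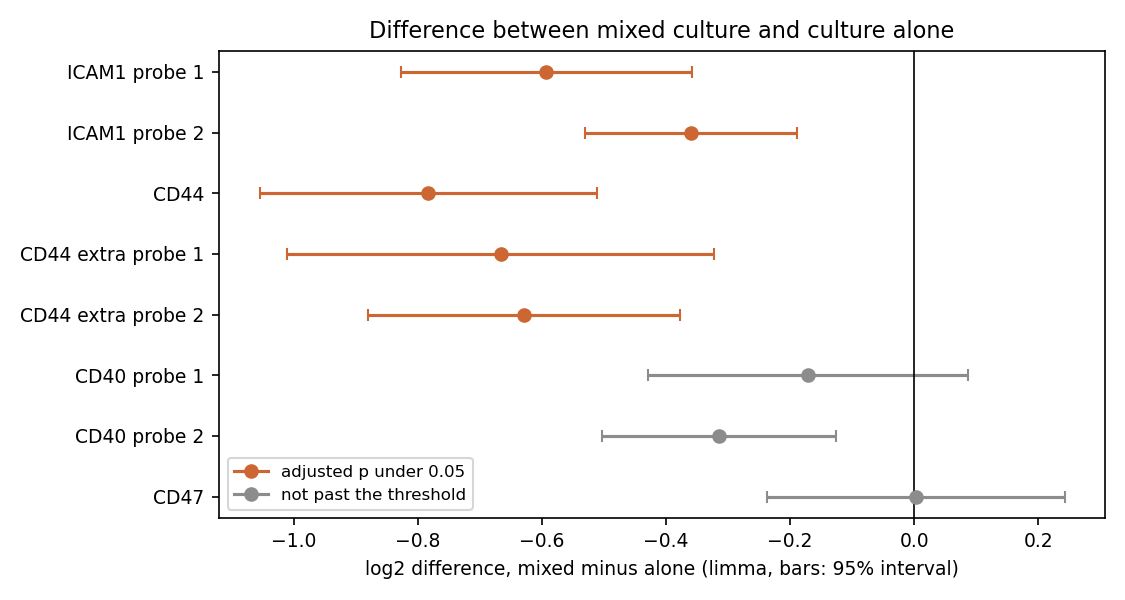
Mixed-minus-alone log2 difference for each tested member probe and the 2 further CD44 probes; points are limma estimates from 3 arrays against 3, bars their 95% intervals, and orange marks an adjusted p under 0.05. The 2 ICAM1 and 3 CD44 probes are orange and lie between -0.78 and -0.36, both CD40 probes are grey and below 0, and CD47 is centred on 0.

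The other 4 genes, VCAM1, SELE, SELP and ALCAM, were not well above background on all arrays of either group and could not be tested. Of their 48 readings (8 probes on 6 arrays), 2 were well above background, both of VCAM1. In 35 readings the scanner software had replaced the signal with a floor value because the spot was not significantly brighter than background, and such values have no order among themselves.

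VCAM1, the ligand of the integrin VLA-4, was detected in mixed replicates 2 and 3 but not in mixed replicate 1. Its processed intensity was 3.84, 3.43 and 10.9 in RasV12 cells alone and 3.96, 22.7 and 21.6 in mixed culture. The first pair of alone values and the first mixed value are floor values, and the third alone value was significantly above background but was not called well above it. The lowest intensity that counted as well above background was 9.15 to 14.6 units depending on the array, so the 2 detected readings were 1.78 and 1.83 times this limit on their arrays and the third alone reading 1.19 times. The groups overlapped because of mixed replicate 1, and the exact permutation test gave p = 0.2 (two-sided) with floor values entered as they stand. No fold is given, since no alone array measured the gene well above background.

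The selectins and ALCAM gave no reading well above background at any of their 7 probes. The upstream SELE probe came nearest, with intensities of 7.81, 7.89 and 3.20 alone and 9.86, 10.6 and 6.64 in mixed culture. These 6 readings were all significantly brighter than background by the scanner's own test, and the groups overlapped (exact permutation p = 0.3, two-sided), although the mixed array was the higher in 3 of 3 same-numbered pairs. The other SELE probe read the floor value on every array, at 3.76, 3.34 and 2.61 alone and 3.87, 3.55 and 3.28 in mixed culture. These floor values were also the higher in mixed culture in each same-numbered pair, so the order within pairs says nothing about SELE. SELP and ALCAM stayed at 5.48 units or below on every array at each of their probes. These probes place no bound on the genes beyond their own detection limit.

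**Figure D3:**
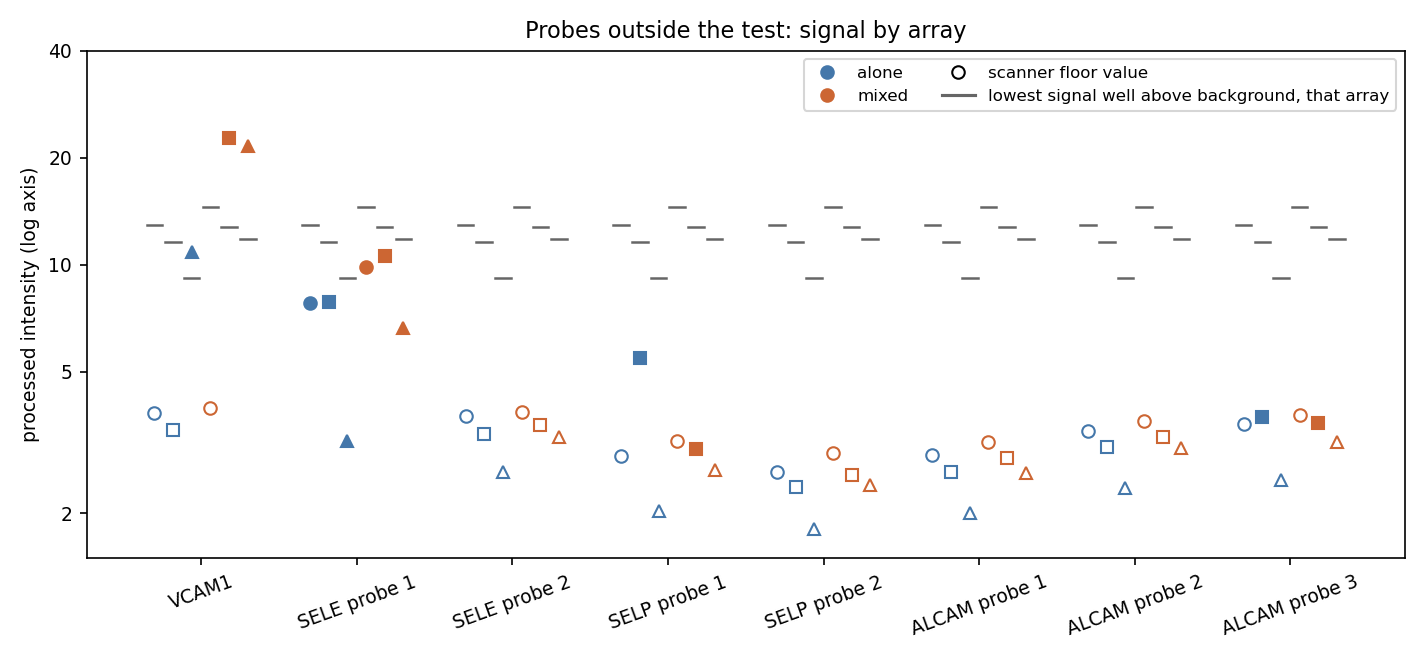
Processed intensity on a log axis for the 8 member probes outside the test, by array; blue is culture alone, orange mixed culture, and circles, squares and triangles are replicates 1 to 3. Open symbols are floor values set by the scanner software and grey dashes the lowest signal well above background on that array. The 2 VCAM1 readings of mixed replicates 2 and 3, at 22.7 and 21.6, lie above their dashes and were the 2 readings called well above background, whereas alone replicate 3, at 10.9, lies above its dash without the call.

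The cells were checked against markers, for which 1 probe a gene was used, the brightest. Of 8 kidney epithelial markers, 7 were on the array by name, and all 7, among them CDH1, EPCAM and CDH16, were well above background on all 6 arrays. Their summed signal, in multiples of the 75th percentile, was 696 to 855 in culture alone and 736 to 859 in mixed culture, and 0 were called by limma (1 at an unadjusted p under 0.05). PTPRC, which marks all leukocytes, and the endothelial genes CDH5, TEK and EMCN were well above background on no array. Other genes of these lists were detected on all 6 arrays, among them the endothelial PECAM1, KDR, TIE1 and VWF and the leukocyte ITGB2, CORO1A, CD79A and CD14. The 8 leukocyte markers summed to 0.675 to 0.747 alone and 0.648 to 0.724 in mixed culture, with CORO1A, an actin-binding protein of leukocytes, called lower. The 7 endothelial markers found on the array summed to 5.16 to 7.43 and 5.62 to 7.52, and the 7 fibroblast markers to 1.21 to 1.28 and 1.34 to 1.44, the latter higher in all 3 mixed arrays. Limma called 0 in either list, where 0 and 2 genes had an unadjusted p under 0.05.
Normal MDCK cells that passed the sort would carry no RasV12, so genes driven by Ras and the MAP kinases were read as well. Of 12 such genes tested, FOSL1 (-0.52), CCND1 (-0.59) and EREG (-0.72) were called lower, EGR1 (0.77) was called higher, and 8 were not called, with a median log2 difference of -0.34. By the brightest probe, 6.49% of all gene symbols were called lower and 5.2% higher. An unadjusted p under 0.05 was reached by 6 of the 12 genes, 4 of them lower in mixed culture. With the replicate block CCND1 lost its call (adjusted p = 0.0633, limma), and IER3 (-0.49, adjusted p = 0.0377) and SPRED1 (0.39, adjusted p = 0.0491) gained one. Their summed signal was 131 to 135 in culture alone and 111 to 127 in mixed culture, lower in all 3 mixed arrays, as were ICAM1 and CD44. DUSP6, which was not called (-0.19), made up 64.1% to 70.1% of that sum, and without it the range was 39.2 to 45.0 alone and 36.9 to 40.2 in mixed culture, with overlap. The part of these genes in the ICAM1 and CD44 results was not tested.

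Genes that work with these molecules were read from 8 lists, which hold 138 different genes, some in more than 1 list. By name 113 were on the array, and 85 could be tested. At the brightest tested probe, 6 (7.06%) were called lower and 5 (5.88%) higher, where 6.49% and 5.2% of the 9904 gene symbols tested in the same way were called. The shares lie near those of all genes, and the median log2 difference was 0.02.

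The CD44 partners moved in both directions. Of 18 tested genes of hyaluronan metabolism, CD44 binding and CD44 splicing, 2 were called higher and 1 lower, with a median of 0.11. SPP1, the secreted CD44 and integrin ligand osteopontin, was higher by 0.83 (SE 0.08, adjusted p = 0.0125, limma). ANK3, an ankyrin that ties membrane proteins to spectrin, was higher by 0.51 (adjusted p = 0.0264, limma), although only 1 other of its 5 tested probes was called higher. MSN, the moesin that links CD44 to actin, was lower by -0.30 (adjusted p = 0.0411, limma). MSN was not called with the replicate block (adjusted p = 0.0598, limma). EZR, the related linker ezrin, stood at -0.33. It was not called in the main fit but was with that block (adjusted p = 0.0499, limma). In the main fit, 1 other EZR probe was called lower. The hyaluronan synthases HAS2 and HAS3 had differences of -0.30 and 0.38 and were not called.

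Among the counter-receptors that bind the members, 5 of 16 could be tested and 1 was called. This was ITGB1, the integrin β1 chain, which besides its place in VLA-4 is a matrix receptor of epithelial cells. It was lower by -0.59 (SE 0.08, adjusted p = 0.0160, limma), and its other tested probe was called lower too. ITGAL, ITGAX, ITGAD, CD40LG and CD6 were well above background on no array. SIRPA, the receptor of CD47, had a difference of 0.29 and was not called. On the CD47 axis 1 of 8 tested genes was called, the integrin β3 chain ITGB3, lower by -0.44 (adjusted p = 0.0371, limma; 0.0657 with the replicate block). UBQLN1, a ubiquilin that binds CD47 inside the cell, was not called at its brightest probe (-0.23), although 2 of its other probes were called lower.

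Other adhesion molecules used by leukocytes were mostly not called, with 1 of 13 tested lower and a median of -0.02. CEACAM1, a homophilic adhesion molecule of epithelia and leukocytes, was lower by -0.66 (SE 0.13, adjusted p = 0.0324, limma; 0.0552 with the replicate block). ICAM5, the neuronal member of the ICAM family, had a difference of 0.34 and was not called, in the other direction from ICAM1.

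No gene of the CD40 signalling list was called by limma among 11 tested, 2 of which had an unadjusted p under 0.05, at a median of -0.20. The lowest values were those of TNFAIP3 (-0.54), CHUK (-0.46) and BIRC3 (-0.45), all short of the threshold. That of TNFAIP3 was far from it (SE 0.34, adjusted p = 0.331, limma), with overlapping groups and 5 of 6 arrays well above background. BIRC3 passed the threshold with the replicate block (adjusted p = 0.0456, limma), and 1 other CHUK probe was called lower. Of 11 tested inducers of adhesion molecules, TRADD, the adaptor of the TNF receptor, was called lower by -0.38 (adjusted p = 0.0369, limma; 0.0631 with the replicate block). RELA and NFKB1, the NF-κB subunits p65 and p50, stood at 0.20 and 0.26 and IRF1 at 0.10, none of them called. NFKBIA stood at -0.26 and was not called either. For NFKB1 and NFKBIA the groups did not overlap. Of the 11 inducers, 4 had an unadjusted p under 0.05, 3 of them lower in mixed culture. JAK2, a kinase of cytokine receptors, stood at -0.46. It was not called in the main fit but was with the replicate block (adjusted p = 0.0353, limma). Of the cytokines that induce ICAM1, IL1A, IL1B and IFNG were well above background on no array. TNF was on all 6 at 1 of its 2 probes, with log2 levels of only -4.79 to -4.05. Its difference of 0.11 was not called.

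Of 11 tested genes that build selectin ligands, 2 were called higher and 1 lower. SLC35C1, the Golgi transporter of GDP-fucose, was higher by 1.18 (SE 0.18, adjusted p = 0.0190, limma), although its other tested probe was not called. The sulfotransferases CHST4 and CHST2 differed in direction, at 0.38 (adjusted p = 0.0325, limma; 0.0526 with the replicate block) and -0.59 (adjusted p = 0.0136, limma). Among 9 tested genes listed for the shedding of surface proteins, BACE1 was called higher by 0.37 (adjusted p = 0.0476, limma; 0.0778 with the replicate block). Of its 6 tested probes, 2 others were called higher and the rest were not called. The CD44 and ICAM1 sheddases ADAM10 and ADAM17 had differences of 0.03 and -0.05.

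**Figure D4:**
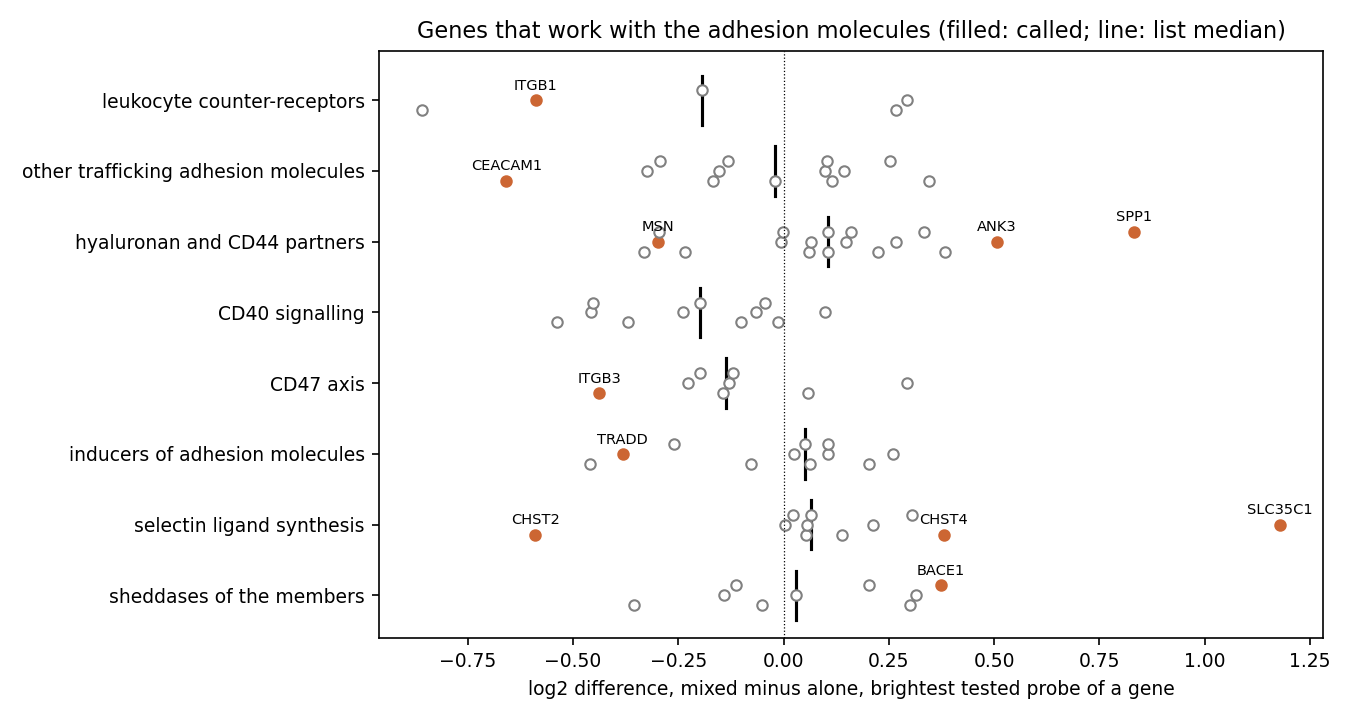
Mixed-minus-alone log2 difference for the tested genes of 8 lists of partners, 1 point a gene at its brightest tested probe; filled and named points passed an adjusted p under 0.05, and the vertical line is the list's median. The called genes fall on both sides of 0, from CEACAM1 at -0.66 to SLC35C1 at 1.18, and most points are open.

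The genes whose pattern over the 6 arrays was most like that of each tested member were looked up as a description. Over 15744 probes with a gene symbol that were well above background on all arrays, those most like CD44, by Pearson's r of log2 levels, included PFN2 (0.999) and SUCLA2 (0.998). Those most like the downstream ICAM1 probe were PNPLA8 (0.997), EXOSC7 (0.997) and TRAPPC6B (0.996). Those most like the downstream CD40 probe were TMEM9B (0.999), RHEB (0.999) and PLRG1 (0.997), and those most like CD47 were PPIL1 (0.994), GCHFR (0.994) and TMEM219 (0.993). With 6 arrays such values are common, since 1239 gene symbols reached an r above 0.9 with CD44 and 302 with CD47.

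**Figure D5:**
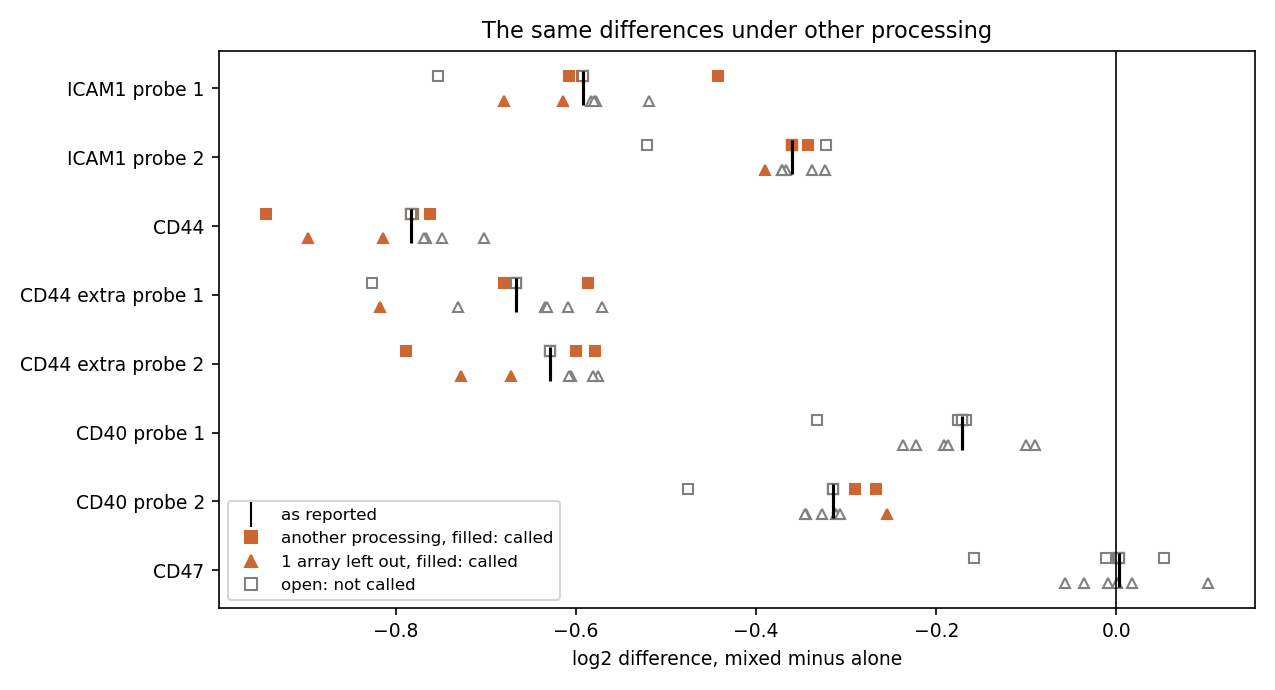
Log2 difference of each tested member probe and of the 2 further CD44 probes as reported (black bar) and under 14 alternatives; squares are other processing, triangles leave out 1 array, and filled symbols were called. ICAM1, CD44 and CD40 stay below 0 throughout, with filled and open symbols side by side for ICAM1, CD44 and CD40 probe 2, and CD47 falls on both sides of 0.

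The direction of the ICAM1, CD44 and CD40 differences held in all 14 alternatives, but the calls did not. The CD44 call was kept in 8 of the 14, that of the upstream ICAM1 probe in 7 and that of the downstream one in 6. The downstream CD40 probe, not called as reported, was called in 4 of the 14, and the upstream one in 0. Leaving out single arrays kept the CD44 call in 2 of 6 cases, without alone replicate 1 (-0.90, adjusted p = 0.00438, limma) and without mixed replicate 1 (-0.81, adjusted p = 0.0365, limma). Without alone replicate 2 or 3, or mixed replicate 2 or 3, the adjusted p of CD44 was 0.0830, 0.0812, 0.0820 and 0.0869. Without mixed replicate 2, whose label gives the ratio of 100 to 1, the CD44 difference was -0.77 and those of the ICAM1 probes -0.58 and -0.37, with adjusted p of 0.0924 and 0.106 (limma) for ICAM1. Leaving out 1 array kept the call of the upstream ICAM1 probe in 2 of 6 cases and that of the downstream one in 1 of 6. When the arrays were scaled to 7 spike-in controls, which shifted the median of all probes by -0.16, CD44 was still called (-0.94, adjusted p = 0.0432, limma), whereas the ICAM1 probes were not (-0.75 and -0.52, adjusted p = 0.0546 and 0.0718).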

How the data were processed

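Total RNA of GFP-positive cells from 3 samples of RasV12 cells alone and 3 mixed cultures was hybridised by the authors to Agilent canine 4 × 44K arrays in 1 colour. The deposited files hold an intensity per spot from Agilent Feature Extraction 10.10.1.1, background-corrected and detrended but not scaled between arrays. The authors also deposited a table of log2 values for 26529 probes, found here to be the processed signal on the log2 scale less 1 constant an array, close to its 75th percentile.

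Control and outlier spots (6 to 12 an array) were left out, spots of a probe averaged, and log2 values taken minus the 75th percentile. Groups were compared with limma 3.58.1 in R 4.3.3 (lmFit, eBayes, two-sided, Benjamini-Hochberg over 26535 probes, threshold 0.05). The procedure was tested on simulated data. Tables were read with Python 3.11.15. Dim probes were compared by the exact permutation test.

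The members and lists were chosen with earlier results of these data known. The text names all members, the list genes past the threshold and the 3 genes most like each tested member, of which 1 is not reported here. List genes named as not called were picked after their values were seen. Older symbols were used for 3 list genes.

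Same-numbered arrays correlated across probes, after removing group means, at 0.16 to 0.35, each over 0.1, so a block for the replicate number was run as an alternative. The p-values of the main fit are unpaired, by group only. Arrays of different number correlated at -0.33 to 0.24. Alone replicate 2 correlated more with mixed replicate 3 (0.24) than with mixed replicate 2 (0.16), so the correlations do not settle the pairing. The titles give the numbers, and they are also the positions on the slide.

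Alternatives were quantile normalization, normexp (offset 50), spike-in scaling, the deposited log2 table, no filter, a filter on all 6 arrays, the methods' t-test, a replicate block and leaving out each array. The study names that t-test, with corrected p-values, for mixed against single cultures of the β-catenin mutant line, and not for these arrays. No slide block was possible with both groups on separate slides.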

Additional observations from a re-analysis of the deposited data

How the results depend on the processing

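The 3 member probes called lower by limma became 1 with spike-in scaling, 0 with no filter on dim probes and 1 by the methods' t-test after Benjamini-Hochberg adjustment. Leaving out 1 array gave 0 to 4. All tested probes called, 2978 as reported, became 995 (694 lower, 301 higher), 12 and 828 under the same settings and 7313 by the methods' t-test unadjusted. Leaving out 1 array gave 7 to 7335, the highest without alone replicate 1, and it gave 24 and 7 when alone replicate 2 or 3 was left out, and 9 and 12 for mixed replicate 2 or 3. The 11 partner genes called became 5, 0 and 4 in turn, 25 by the unadjusted t-test, and 0 to 22 when 1 array was left out, the highest again without alone replicate 1. Spike-in scaling moved the share of calls that were higher from 49.0% to 30.3%. With the replicate block, 3 member probes, 2825 probes and 8 partner genes were called. No member's call changed, but of the 11 partner genes 5 kept their call, 6 lost it, and 3 others (BIRC3, EZR and JAK2) gained one. No member was called higher under any of these settings. The cause of these shifts was not tested. The 8 dim probes are limited by their signal over background, and 3 arrays a group limit the precision of the rest. A block for the slide was not run, because no slide carried both groups.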
